A study of Rattus norvegicus with 18 samples.

Results

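The mRNA levels of 10 effector cytokine and chemokine genes were examined in rat T-MBP cells, which are CD4+ T cells that recognise myelin basic protein (MBP) and cause experimental autoimmune encephalomyelitis when they are transferred. The genes were chosen by name, as the rows of *Ccl3*, *Ccl4*, *Ccl5*, *Xcl1*, *Ifng*, *Tnf*, *Csf2*, *Il2*, *Il10* and *Tgfb1* among the 32882 genes of each of 3 count tables. In all, 18 libraries of 3′ bulk mRNA-seq were analysed, with 3 libraries in each of 6 groups, all from cells recovered from Lewis rats on day 3 after transfer. In every group the cells had been expanded in growth factor medium and restimulated with irradiated thymocytes and MBP before they were injected. *Ets1*-KO cells and control cells were sorted from the spinal cord parenchyma, *Ets1*-KO cells and control cells from the spleen, and, in another table, *Grk2*-KO cells and control cells from the spleen.

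KO cells carried a gene guide introduced as a Cas9 ribonucleoprotein and were sorted by green fluorescence, and control cells carried a non-targeting guide and were sorted by BFP. The edit and the fluorescent protein therefore cannot be told apart. Such editing acts on a population, so that unedited copies of the gene can remain. Parenchymal cells were purified on a Percoll gradient and splenic cells by lysis of erythrocytes and CD4+ enrichment, each followed by sorting, and the study used young and adult rats of both sexes, which the labels do not give for single libraries. Labels number the libraries of each group from 1 to 3 but do not say which came from the same animal. Where animals were not separate, the p-values describe only these samples. Those of limma rest mostly on a variance trend over all genes. The guides that the study lists for these edits are shown because they define the groups, with the 10 bases nearest the PAM in capitals.
Ets1 guide: tgctgctcggAGTTAACAGT
Grk2 guide: gatttgtcagAACCTCCGAG
non-targeting guide: gctgcatgggGCGCGAATCA

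The 10 genes encode the secreted proteins by which an activated CD4+ T cell acts on other cells. CCL3, CCL4 and CCL5 are inflammatory chemokines that attract monocytes and T cells, and XCL1 attracts cross-presenting dendritic cells. IFN-γ activates macrophages and microglia, TNF acts on endothelium and glia, and GM-CSF, encoded by *Csf2*, can contribute to the disease that encephalitogenic T cells cause. IL-2 drives the growth of T cells, and IL-10 and TGF-β1 restrain immune responses. ETS1 is a transcription factor whose family recognises a GGAA core in DNA, and GRK2 is a kinase that phosphorylates activated G protein-coupled receptors such as chemokine receptors.

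Between 898092 and 2248258 reads per library were counted on genes, and 3′ reads do not show an edit elsewhere in a transcript. *Ets1* mRNA was 2400 ± 150 normalized counts (SD, n = 3) in control and 2551 ± 183 in *Ets1*-KO cells of the parenchyma, and 2077 ± 135 and 2000.1 ± 324 in the spleen. These counts therefore do not check the *Ets1* labels. *Grk2* mRNA was 158 ± 14.1 in control and 68.3 ± 17.4 in *Grk2*-KO cells (limma, log2 fold change -1.22, SE 0.13, adjusted p = 1.76e-12). All 7 T cell markers, *Cd4* and the CD3 chains among them, were past the count minimum in each table and none was called by limma, edgeR or DESeq2, with 3 at an unadjusted p under 0.05 by limma in the parenchyma and 1 in the spleen of the *Ets1* experiment, whereas *Cd8b* and *Ncr1* had no read in any library. Within groups, the reads of most pairs of libraries differed by a chi-square per degree of freedom between 1.48 and 4.6, but library 3 of the splenic *Ets1*-KO cells stood apart from the other two, at 8.95 and 9.23. Called values and members' fold changes that rest on it are given with and without libraries 3.

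Windows of 300 bases were given by RefSeq (build GRCr8) for 6 of the 10 genes, and *Ccl3*, *Ccl4*, *Ccl5* and *Il10* had no entry. They run from 250 bases before the annotated transcript start to 50 after it. For *Ifng* and *Csf2* the bases after that start open with the ATG of the coding sequence. Positions in these windows may therefore not be distances from a transcript start. Both strands were searched for GGAAGT (an ETS core), GGAAAA (an NFAT core), TGANTCA (AP-1) and TATAAA (the TATA box), and GGAAGT and GGAAAA can lie next to each other. GGAAGT was found in 2 of the 6 windows, those of *Xcl1* and *Tnf*, and in 22.6% of all 33469 windows. These 2 are shown since they hold those letters, and *Ifng* as a gene with a window that was tested in the parenchyma. *Tgfb1*, which was tested in every table, is not shown. Every match is in capitals.
Xcl1 chr13:79785391-79785690, minus strand: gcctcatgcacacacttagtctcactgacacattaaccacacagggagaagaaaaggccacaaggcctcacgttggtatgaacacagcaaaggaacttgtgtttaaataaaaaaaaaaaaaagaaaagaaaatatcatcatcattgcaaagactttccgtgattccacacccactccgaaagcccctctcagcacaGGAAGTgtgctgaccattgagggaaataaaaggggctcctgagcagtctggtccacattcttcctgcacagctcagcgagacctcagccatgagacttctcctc
Tnf chr20:3626435-3626734, plus strand: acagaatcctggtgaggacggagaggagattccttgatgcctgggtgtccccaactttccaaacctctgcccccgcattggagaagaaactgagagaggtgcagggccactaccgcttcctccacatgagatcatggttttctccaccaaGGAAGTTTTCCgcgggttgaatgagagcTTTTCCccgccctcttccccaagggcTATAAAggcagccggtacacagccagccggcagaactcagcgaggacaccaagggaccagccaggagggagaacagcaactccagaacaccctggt
Ifng chr7:55788930-55789229, plus strand: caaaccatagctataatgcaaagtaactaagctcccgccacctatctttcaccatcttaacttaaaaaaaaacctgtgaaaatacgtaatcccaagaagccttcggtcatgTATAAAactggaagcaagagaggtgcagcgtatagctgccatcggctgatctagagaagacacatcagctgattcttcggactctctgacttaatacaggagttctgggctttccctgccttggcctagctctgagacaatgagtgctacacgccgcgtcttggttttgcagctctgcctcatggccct

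The *Xcl1* match began 54 bases before the start and the *Tnf* match 100 bases before it, where it was joined to a match of the NFAT core. An NFAT core was found in 3 of the 6 windows (*Tnf*, *Csf2* and *Il2*) and in 24.7% of all windows. The *Csf2* match lay after the ATG. A TATA box was found in 3 of 6 windows (*Tnf*, *Ifng* and *Il2*) and in 14.2%. No member window held the AP-1 letters, which 7.33% of all windows held. The windows of *Ifng* and *Tgfb1* held no GGAAGT. Both held the shorter GGAA, on either strand, which was not counted. A match is a description of these letters only.

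In the control cells, *Ccl3*, *Ccl4*, *Ccl5* and *Ifng* were at a higher level in every parenchymal library than in any splenic one, and *Tgfb1* was higher only than in the spleen of the *Grk2* experiment. Levels across tables are given in CPM, the reads of a gene per 1000000 reads on genes, which do not depend on the scaling of a table. They are given side by side and without a test, because tissue, purification and table cannot be told apart. *Ccl4* ranged from 685 to 1057 CPM in the parenchyma, from 17.3 to 26.6 in the spleen of the *Ets1* experiment and from 3.80 to 4.28 in the spleen of the *Grk2* experiment. Its mean in the parenchyma was 39.2 times that of the first spleen group and 200.1 times that of the other one. The latter ratio is rough, since *Ccl4* had only 15 reads in the control group of the *Grk2* experiment. *Ccl3* ranged from 184 to 249.4 in the parenchyma, from 33.8 to 54.1 in the spleen of the *Ets1* experiment and from 1.70 to 6.85 in that of the *Grk2* experiment. *Ccl5* varied least among the chemokines, from 1198 to 1538, from 619 to 745 and from 278 to 473. Its mean in the parenchyma was 2.09 and 3.57 times those of the spleens. For these chemokines the ranges of the 3 control groups did not overlap, and the order was parenchyma, spleen of the *Ets1* experiment, spleen of the *Grk2* experiment.

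*Ifng* ranged from 23.0 to 48.8 CPM in parenchymal control cells, from 4.45 to 5.83 in the spleen of the *Ets1* experiment and from 1.52 to 4.24 in that of the *Grk2* experiment, in the same order without overlap. Those splenic values were 7, 7 and 4 reads in the *Ets1* experiment and 5, 3 and 2 in the *Grk2* experiment. The 2 spleen groups were thus separated by library size alone, since 4 reads gave 4.45 CPM and 5 reads gave 4.24. *Tgfb1* ranged from 86.0 to 103 in the parenchyma, from 88.2 to 134 in the spleen of the *Ets1* experiment and from 41.9 to 62.5 in that of the *Grk2* experiment. The first 2 of these ranges overlapped, and the third lay below both. The spleens of both experiments thus differed although both held control cells, with a mean 10.2 times higher for *Ccl3*, 5.1 times for *Ccl4* and 1.7 times for *Ccl5* in the *Ets1* experiment. In the *Grk2* experiment, *Ccl3* had only 16 reads and *Ccl4* 15 in the control group, so that their ratios are rough. In bulk samples, fewer cells of a type and less RNA per cell cannot be told apart.

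The 10 genes together took between 0.224% and 0.299% of the reads of a parenchymal control library and between 0.322% and 0.386% of an *Ets1*-KO library. In the spleen of the *Ets1* experiment these shares were 0.0818% to 0.0920% in control and 0.119% to 0.147% in KO libraries, and in the *Grk2* experiment 0.0341% to 0.0527% and 0.0282% to 0.0323%. The KO libraries thus lay above the control libraries in both *Ets1* tables and below them in the *Grk2* table, in each case without overlap. *Ccl5* supplied between 46.3% and 59.2% of the members' reads in the parenchyma and between 75.7% and 89.6% in the spleens, where *Ccl3* and *Ccl4* had few reads.

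**Figure D1:**
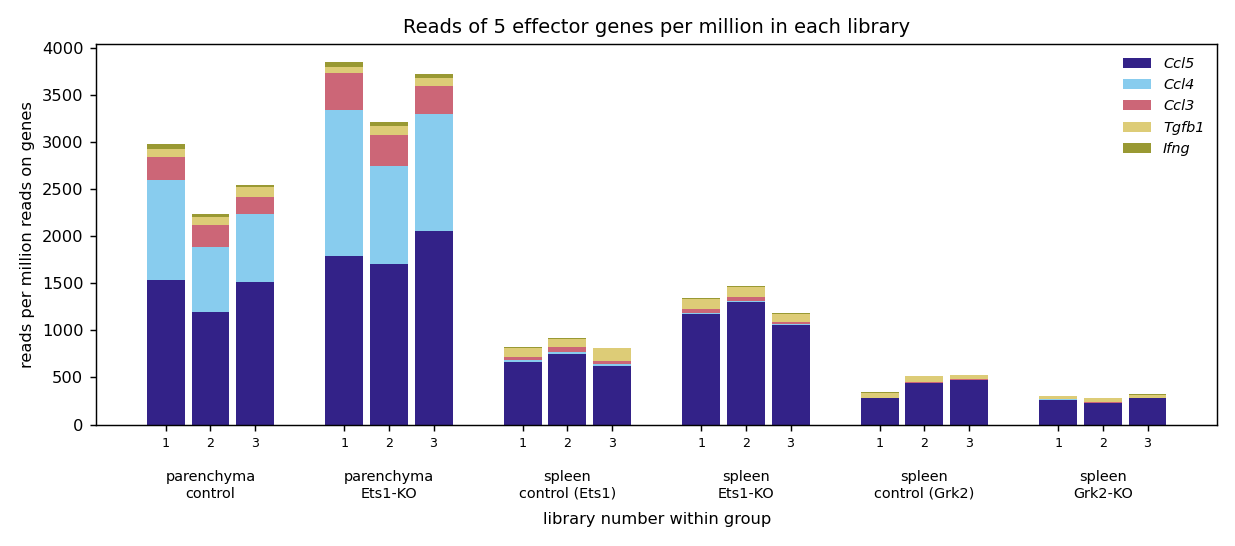
Level of 5 effector genes in CPM (y axis), stacked by gene, in each of the 18 libraries (x axis, numbered within their group). The *Ccl4* and *Ccl3* segments are tall in the 6 parenchymal libraries and almost absent from the 12 splenic ones, where *Ccl5* makes up between 75.7% and 89.6% of the members' reads.

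*Ccl3*, *Ccl4* and *Ccl5* lie within 146557 bases of one chromosome (Rnor_6.0, chr10:70739799-70886355), and *Ccl3* (chr10:70869512-70871066, minus strand) and *Ccl4* (chr10:70884530-70886355, plus strand) are neighbours separated by 13463 bases. The 4 other genes annotated in that stretch, *Ccl6* and *Ccl9* among them, had at most 11 reads each over all 18 libraries. Reads of *Ccl4* and *Ccl3* were in another proportion in each tissue. For each *Ccl3* read there were between 2.85 and 4.24 *Ccl4* reads in the parenchymal libraries, and in the spleen of the *Ets1* experiment between 0.447 and 0.512 in control and between 0.241 and 0.396 in KO libraries. In the *Grk2* experiment both genes had at most 9 reads in a library, too few for such a ratio.

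The first comparison asks how *Ets1*-KO cells differ from control cells in the parenchyma. *Ccl3*, *Ccl4* and *Ccl5* were all higher in the *Ets1*-KO cells, between 1.30-fold and 1.56-fold, and neither *Ifng* nor *Tgfb1* passed the test. Of the 10 members, 5 were past the count minimum (a mean of at least 10 normalized counts) and 3 of these were called at an adjusted p under 0.05, all higher. Over all 7002 genes tested, 5.23% were called in either direction. KO and control libraries were fully separated for 3 of the 5 members, and for 18.4% of all genes tested. The median log2 fold change was 0.42 over the 5 members and -0.03 over all genes.

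*Ccl4* had 1477, 996 and 1023 normalized counts in control libraries 1 to 3, and 2178, 1488 and 1759 in the *Ets1*-KO libraries. Every KO library was above every control library, with library 2 of the KO group close to library 1 of the control group. Means of 1165 ± 270 and 1809 ± 348 (SD, n = 3) gave a fitted difference of 0.64 on the log2 scale (SE 0.07; limma, adjusted p = 4.63e-16).

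*Ccl3* had 348, 349.8 and 259 normalized counts in control and 549.9, 473 and 422 in KO libraries, so that all KO values were above all control values. The means were 319 ± 51.8 and 482 ± 64.6, a log2 fold change of 0.60 (SE 0.09; limma, adjusted p = 3.27e-08). *Ccl5*, the chemokine with the most reads, had 2149, 1743 and 2137 in control and 2508, 2430.2 and 2905 in KO libraries. These groups did not overlap either. From 2010 ± 231 to 2614 ± 255 it rose by 0.38 on the log2 scale (SE 0.07; limma, adjusted p = 2.95e-06). Each of these chemokines was higher in all 3 same-numbered pairs, and the exact permutation test of 3 against 3 libraries gave p = 0.1 for each, the smallest it allows. All 3 calls were lost in limma without a trend of the variance (adjusted p between 0.248 and 0.365), a fit that called 3 of all genes.

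*Ifng* (chr7:61337380-61341419), the defining cytokine of Th1 cells, had 68.2, 45.1 and 32.4 normalized counts in control and 67.7, 61.7 and 57.8 in KO libraries. The control libraries spread widely and the highest of them was above all KO libraries. The log2 fold change was 0.42, with a 95% interval from 0.04 to 0.79 (limma, unadjusted p = 0.0287, adjusted p = 0.215), and it was between 0.22 without libraries 3 and 0.63 without libraries 1. *Tgfb1* (chr1:82480194-82497199) had 122, 125 and 145 in control and 102.1, 131 and 118 in KO libraries, which overlapped. Its log2 fold change was -0.16, with an interval from -0.43 to 0.10 (limma, adjusted p = 0.584), and it was between -0.28 without libraries 2 and -0.09 without libraries 3.

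The remaining 5 members were under the minimum in the parenchyma. *Csf2* had 5, 1 and 8 reads in control and 6, 5 and 5 in KO libraries, too few to detect a difference at this depth. *Il10* had 1 read in control and 4 in KO libraries, *Tnf* 2 and 0, and *Xcl1* 1 and 0. *Il2* had no read in any of the 6 libraries, which allows up to 0.67 CPM in the control and 0.741 in the KO group (3 counts over the group, counting error only). The annotated span of *Tnf* overlaps *RT1-CE4* on the other strand, which had 4619 reads over the 18 libraries, and that of *Il2* overlaps *Adad1*, which had 0. Whether the counting used strand is not given in the sources used here, so the few reads of *Tnf* are uncertain in that respect.

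**Figure D2:**
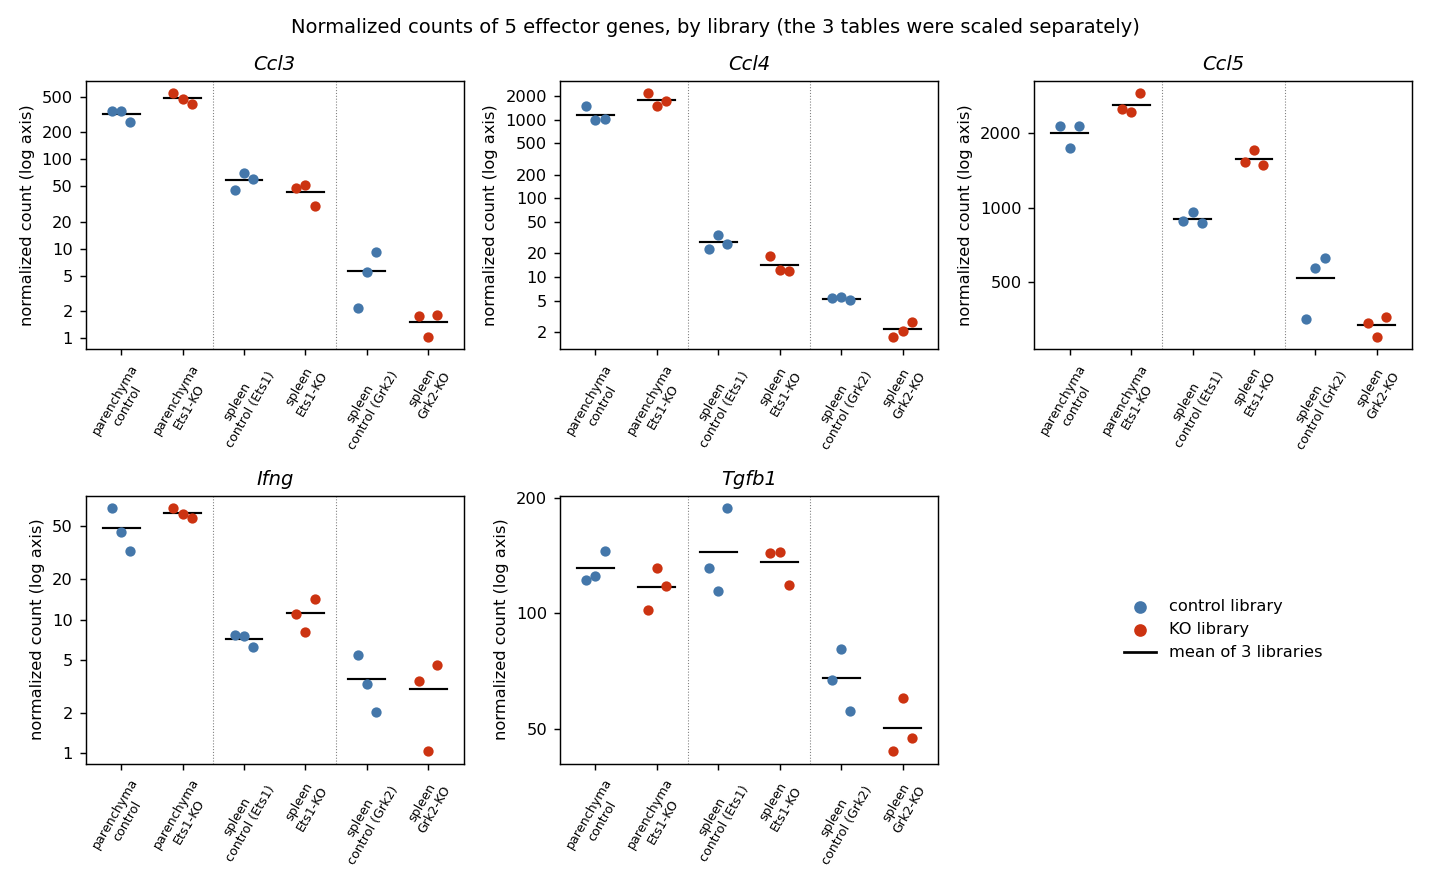
Normalized counts (y axis, log scale) of 5 effector genes in each library, by group (x axis), with a black line at the mean of 3 libraries, blue points for control and red points for KO libraries. *Ccl3*, *Ccl4* and *Ccl5* are higher in all parenchymal *Ets1*-KO libraries than in their controls, whereas *Ccl4* is lower in all splenic *Ets1*-KO libraries than in theirs. Tables were scaled separately, so that heights across the dotted lines are not on 1 scale.

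Markers of other cells were compared in the same libraries. The 16 myeloid markers, of cells that can also make these chemokines, summed to between 40.74 and 58.5 CPM in control and between 43.2 and 84.3 in KO libraries of the parenchyma, with *Adgre1* and *P2ry12* at 0. The 6 CD8 and NK markers in the table summed to between 51.5 and 54.3 in control and between 65.8 and 69.4 in KO libraries, with *Cd8b* and *Ncr1* at 0, and *Cd8a* had a mean of 1.57 normalized counts in control and 7.62 in KO libraries. B cell markers summed to at most 4.25 CPM in any of these libraries, and neural markers to between 50.1 and 64.0 in control and between 34.5 and 58.8 in KO libraries. The 7 T cell markers summed to between 2586 and 2737 in control and between 2847 and 2996 in KO libraries. The part of these cells in the chemokine differences was not tested.

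Around the members, 18 receptor genes were examined, of which 11 could be tested in the parenchyma, with 2 called higher and 1 called lower. *Il2ra* and *Il2rb*, chains of the IL-2 receptor, rose by 0.62 (SE 0.08, adjusted p = 1.89e-12) and 0.39 (SE 0.08, adjusted p = 3.58e-05) on the log2 scale. *Ccr3*, a receptor for CCL5 best known from eosinophils and Th2 cells, fell by 1.00 on the log2 scale, from 454 ± 30.3 to 228 ± 36.4 normalized counts (adjusted p = 2.45e-21). Of 32 other cytokine and chemokine genes, 5 could be tested, with 2 called higher and 1 lower. *Il22* and *Il17a*, cytokines of Th17 cells, rose by 0.82 (SE 0.15, adjusted p = 3.75e-06) and 0.56 (SE 0.09, adjusted p = 3.01e-07), and *Il16* fell by 0.42 (SE 0.12, adjusted p = 0.0111). These p-values are from limma. The *Il16* call was lost without libraries 1 (adjusted p = 0.113), without libraries 2 (adjusted p = 0.259) and in DESeq2 (adjusted p = 0.393).

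Of 33 transcription factor genes that act on cytokine genes, 28 could be tested in the parenchyma, with 2 called higher and 3 lower. *Tbx21*, which encodes the Th1 factor T-bet, rose by 0.35 (limma, adjusted p = 0.00169), and *Batf*, an AP-1 factor needed for Th17 cells, rose by 0.46 (adjusted p = 0.00269). *Jun*, another AP-1 factor, fell by 0.43 (adjusted p = 0.0122), and *Nfkb1*, which encodes an NF-κB subunit, fell by 0.45 (adjusted p = 0.0442). Without libraries 2 none of these 4 was called (limma, adjusted p between 0.107 and 0.409), nor were *Jun* and *Nfkb1* without libraries 3 (0.0971 and 0.239) or *Nfkb1* without libraries 1 (0.145). DESeq2 called 1 of the 28 and edgeR 7. None of the 12 genes tested for cytokine mRNA decay and neither of the 2 tested for TGF-β activation was called there by limma, edgeR or DESeq2, with 3 and 0 at an unadjusted p under 0.05 by limma. Medians of these 5 lists lay between 0.02 and 0.23, against -0.03 over all genes.

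The same question was asked of the *Ets1*-KO cells of the spleen. Here *Ccl5* alone among the members was called, at 1.74 times the control level, while *Ccl3* and *Ccl4* had lower means in KO cells and did not pass the test. Of the 10 members, 4 were past the minimum and 1 was called, higher, against 2.22% of the 6979 genes tested. The groups did not overlap for 2 of the 4, *Ccl5* and *Ccl4*, and for 16.9% of all genes. The median log2 fold change was -0.25 over the 4 members and 0.00 over all genes.

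*Ccl5* (chr10:70739799-70744315, minus strand) had 882, 963 and 871 normalized counts in control and 1534, 1709 and 1491 in KO libraries. The lowest KO library was far above the highest control library, and the log2 ratios of the pairs, 0.80, 0.83 and 0.77, were nearly equal. With means of 905 ± 50.1 and 1578 ± 116 (n = 3), the log2 fold change was 0.80 (SE 0.11; limma, adjusted p = 0.000166). Without libraries 3 it was 0.81 (adjusted p = 1.03e-06). Without libraries 1 the value stayed at 0.80 but the call was lost (adjusted p = 0.182), and in that fit 3 of all genes were called. It was lost as well without the variance trend (adjusted p = 0.322).

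*Ccl4* had 23.0, 34.4 and 26.6 normalized counts in control and 18.5, 12.4 and 11.9 in KO libraries of the spleen. All KO values were below all control values and every pair was lower, on 70 reads in the control and 66 in the KO group, which was sequenced more deeply. The log2 fold change was -0.93, with a 95% interval from -1.60 to -0.27 (limma, unadjusted p = 0.00808, adjusted p = 0.161), and -0.85 without libraries 3 (adjusted p = 0.207). *Ccl3* had 44.8, 69.9 and 59.5 in control and 47.9, 51.5 and 30.0 in KO libraries, which overlapped, with the lowest value in library 3 of the KO group. Its log2 fold change was -0.44 (limma, adjusted p = 0.386) and -0.17 without libraries 3 (adjusted p = 0.806), against -0.70 without libraries 1 (adjusted p = 0.618).

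*Tgfb1* had 131, 114 and 188 normalized counts in control and 144, 145 and 119 in KO libraries of the spleen. The groups overlapped, and the log2 fold change was -0.06, with an interval from -0.40 to 0.28 (limma, adjusted p = 0.907), which became 0.23 without libraries 3 (adjusted p = 0.552) and -0.26 without libraries 2 (adjusted p = 0.497). *Ifng* was just under the minimum, with 7.66, 7.53 and 6.27 in control and 10.96, 8.06 and 14.4 in KO libraries, on 18 and 52 reads. All KO values were above all control values (exact permutation test, p = 0.1, the smallest it allows). Groups were also without overlap for 16.9% of the genes tested, to which *Ifng* did not belong. With no minimum the log2 fold change of *Ifng* was 0.54 (limma, adjusted p = 0.801). In a fit chosen after seeing the data, with no minimum and without libraries 3, it was 0.28 (adjusted p = 0.884).

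Of the other members in the spleen of the *Ets1* experiment, *Csf2* had 3 reads, all in library 3 of the KO group, and *Tnf* had 2, both in 1 control library. *Xcl1*, *Il2* and *Il10* had no read there, which allows up to 0.906 CPM in the control and 0.479 in the KO group. B cell markers summed to between 9.99 and 77.9 CPM in control and between 4.71 and 23.6 in KO libraries, and myeloid markers to between 24.5 and 30.0 and between 28.0 and 33.5, with *C1qc*, *Adgre1* and *P2ry12* at 0. CD8 and NK markers summed to between 47.9 and 84.9 in control and between 76.5 and 86.3 in KO libraries, with *Cd8b* and *Ncr1* at 0. Their part in the *Ccl5* and *Ccl4* values was not tested.

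None of the 10 receptor genes and none of the 4 other cytokine genes tested in the spleen of the *Ets1* experiment were called by limma, edgeR or DESeq2, with 0 and 1 at an unadjusted p under 0.05 by limma. Of the 27 transcription factor genes tested, 3 were called, all higher. *Fos* and *Junb*, AP-1 factors induced by stimulation, rose by 0.86 (SE 0.12, adjusted p = 0.000166) and 0.61 (SE 0.14, adjusted p = 0.0172), and *Maf*, a factor of IL-10 and Th17 programmes, rose by 0.57 (SE 0.15; limma, adjusted p = 0.0422). Without libraries 3 *Fos* was still called at 0.84 (adjusted p = 2.82e-06), whereas *Junb* at 0.45 (adjusted p = 0.0768) and *Maf* at 0.43 (adjusted p = 0.153) were not. Without libraries 1 none of them was called (adjusted p between 0.0553 and 0.588). Of the 27 genes, edgeR called 4 and DESeq2 called 2, which left out *Maf* (DESeq2, adjusted p = 0.127). No gene of the lists for mRNA decay and TGF-β activation was called by limma (3 and 0 at an unadjusted p under 0.05), and edgeR called 1 of the 12 mRNA decay genes and DESeq2 0.

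**Figure D3:**
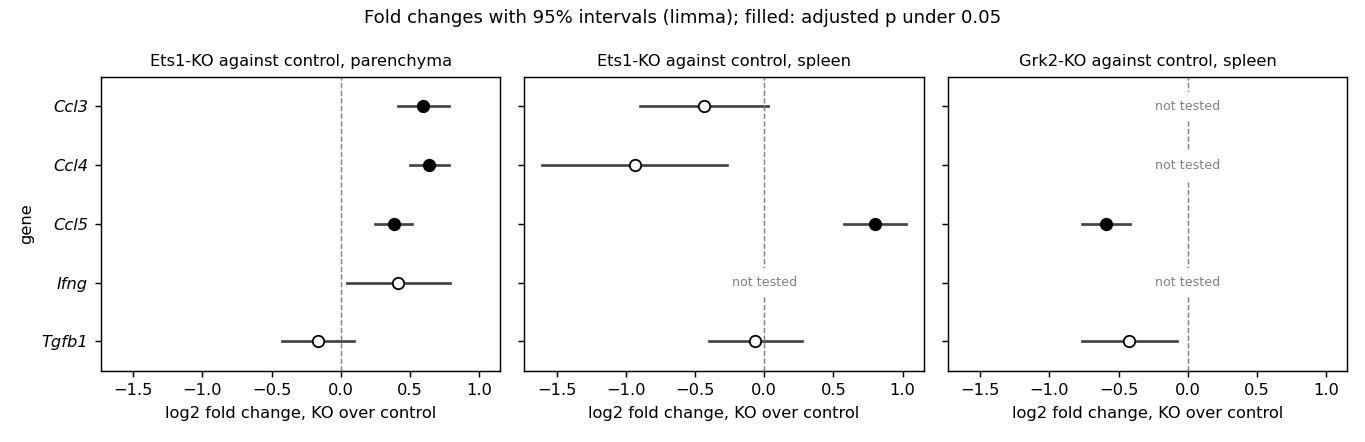
Log2 fold change of KO over control (x axis) with its 95% interval from limma for 5 effector genes (y axis) in the 3 comparisons. Filled points passed an adjusted p of 0.05: *Ccl3*, *Ccl4* and *Ccl5* in the parenchyma at 0.60, 0.64 and 0.38, and *Ccl5* in the spleen at 0.80 in *Ets1*-KO and -0.59 in *Grk2*-KO cells.

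The effect of the *Ets1* edit was then compared between the tissues, as the log2 ratio of each same-numbered pair within its table. For *Ccl4* the ratios were of opposite sign in the parenchyma and the spleen, although the splenic decrease itself was not called (limma, adjusted p = 0.161). For *Ccl3* the ratios were also higher in the parenchyma. Of 4 members tested, 2 differed between the tissues, both with the higher ratio in the parenchyma, against 2.1% of the 6520 genes tested.

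The *Ccl4* ratios were 0.56, 0.58 and 0.78 in the parenchyma and -0.30, -1.40 and -1.10 in the spleen. Every parenchymal pair was above 0 and every splenic pair below it. The difference was 1.57, with an interval from 1.16 to 1.99 (limma, adjusted p = 6.52e-06), and 1.42 without libraries 3 (adjusted p = 0.000412). Without the variance trend it was not called (adjusted p = 0.204). The SE of the difference with the trend was 0.20, below the 0.32 of the splenic fold change alone. That trend was taken at the mean level over both tissues, far above the splenic level. The interval and p-value are therefore stronger than the splenic reads allow.

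The *Ccl3* ratios were 0.66, 0.43 and 0.70 in the parenchyma and 0.09, -0.43 and -0.97 in the spleen. These sets did not overlap, but 1 splenic pair was above 0. The difference was 1.03, with an interval from 0.61 to 1.46 (limma, adjusted p = 0.00408). Without libraries 3 it was 0.72 and no longer passed (adjusted p = 0.0905), nor did it without the variance trend (adjusted p = 0.278). The SE of the difference, 0.21, was below that of the splenic fold change alone, 0.22. This interval and p-value are thus also stronger than the splenic reads allow.

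*Ccl5* had ratios of 0.22, 0.48 and 0.44 in the parenchyma and 0.80, 0.83 and 0.77 in the spleen. All splenic ratios were above all parenchymal ones, the reverse of the order for *Ccl3* and *Ccl4*. The difference was -0.42, with an interval from -0.68 to -0.16, and did not pass after adjustment (limma, unadjusted p = 0.00238, adjusted p = 0.0816). It was -0.46 without libraries 3 (adjusted p = 0.0764). For *Tgfb1* the ratios of both tissues overlapped and the difference was -0.10, with an interval from -0.54 to 0.34 (adjusted p = 0.902).

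**Figure D4:**
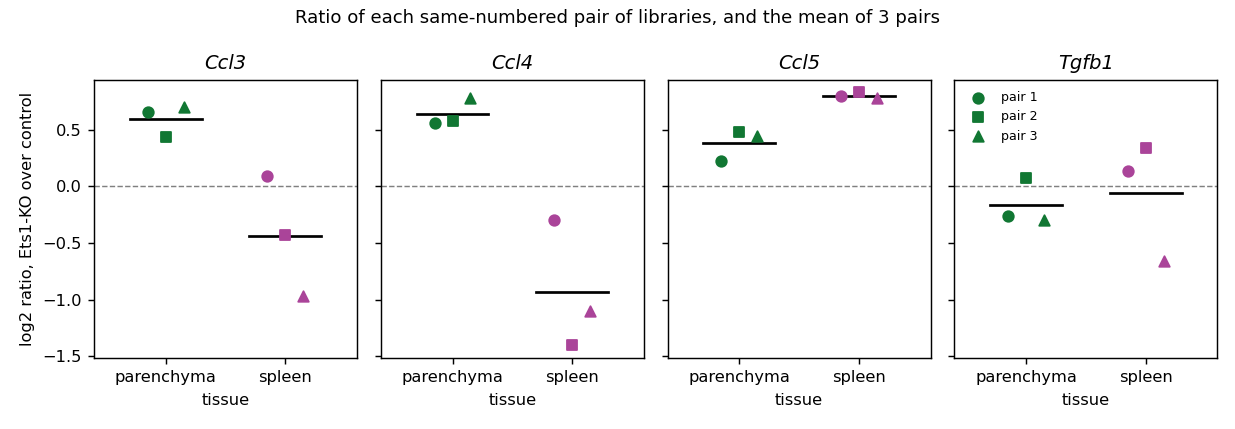
Log2 ratio of *Ets1*-KO over control in each same-numbered pair of libraries (y axis) in the parenchyma and the spleen (x axis) for 4 effector genes, with a black line at the mean of 3 pairs. The *Ccl4* ratios lie between 0.56 and 0.78 in the parenchyma and between -1.40 and -0.30 in the spleen, and the *Ccl5* ratios are above 0 in both tissues.

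The last comparison asks how *Grk2*-KO cells differ from control cells in the spleen. *Ccl5* was lower in *Grk2*-KO cells, at 0.66 times the control level by the fitted log2 fold change, but 1 control library overlapped the KO group. Of the 10 members, 2 were past the minimum and 1 was called, lower, against 1.56% of the 6985 genes tested. Neither of the 2 had groups without overlap, against 12.2% of all genes. Their fold changes were -0.59 and -0.42, and the median over all genes was 0.02.

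*Ccl5* had 356, 571 and 628 normalized counts in control and 341, 301 and 362 in *Grk2*-KO libraries. Control library 1 lay within the KO range, and the ratio of pair 1 was -0.06 against -0.92 and -0.79 in pairs 2 and 3. From 518 ± 144 to 335 ± 30.9 (SD, n = 3) the log2 fold change was -0.59 (SE 0.09; limma, adjusted p = 3.2e-07; exact permutation test, p = 0.2). In DESeq2 its SE was 0.265. The call was lost without the replicate block (adjusted p = 0.0684), in DESeq2 (adjusted p = 1), without the variance trend (adjusted p = 0.574) and without libraries 2 (-0.43, adjusted p = 0.484).

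*Tgfb1* had 67.2, 80.9 and 55.7 normalized counts in control and 43.7, 60.1 and 47.3 in *Grk2*-KO libraries. It was lower in all 3 pairs although the groups overlapped, with a log2 fold change of -0.42 and an interval from -0.76 to -0.08 (limma, unadjusted p = 0.0156, adjusted p = 0.304). The other chemokine genes were under the minimum. *Ccl4* had 5 reads in each control library and 2, 2 and 3 in the KO libraries, and *Ccl3* had 2, 5 and 9 reads and 2, 1 and 2. In normalized counts neither gene's groups overlapped and each was lower in all 3 pairs (exact permutation test, p = 0.1 for each, the smallest it allows). For *Ccl3*, control library 1 and KO libraries 1 and 3 had 2 reads each, so that they were separated by the scaling alone. The share of genes without overlap was taken over tested genes only. With no minimum their log2 fold changes were -1.01 and -1.24 (limma, adjusted p = 0.7 and 0.578).

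*Ifng* had 10 reads in the control and 10 in the *Grk2*-KO group, too few to detect a difference at this depth. *Csf2* and *Xcl1* each had 1 read in either group, *Il2* had 2 reads in control and 0 in KO libraries, and *Tnf* and *Il10* had none, which allows up to 0.819 CPM in the control and 0.721 in the KO group. Myeloid markers summed to between 36.5 and 49.5 CPM in control and between 37.7 and 52.6 in KO libraries, and the 7 T cell markers to between 2148 and 2252 and between 2117 and 2315. CD8 and NK markers summed to between 158 and 214 and between 168 and 176, with *Cd8a*, *Cd8b* and *Ncr1* at 0, and B cell markers to at most 5.94 in any library. Their part in the *Ccl5* value was not tested.

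Of the 10 receptor genes tested in the *Grk2* experiment, 2 were called, both lower. *Ccr3* went from 253 ± 39.9 to 110.2 ± 11.97 normalized counts, a log2 fold change of -1.18 (SE 0.11; limma, adjusted p = 8.38e-17). *Il2ra* went from 265 ± 50.1 to 199 ± 40.6, a log2 fold change of -0.42 (SE 0.10; limma, adjusted p = 0.00512). Both were called by edgeR, and DESeq2 called only *Ccr3* of the 10 (*Il2ra*, adjusted p = 1). The *Il2ra* call was also lost without libraries 1 (adjusted p = 0.17) and without libraries 2 (adjusted p = 0.484). None of the 6 other cytokine genes, 26 transcription factor genes, 12 mRNA decay genes and 2 TGF-β activation genes tested was called by limma, edgeR or DESeq2, with 0, 3, 1 and 1 at an unadjusted p under 0.05 by limma.

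*Ccl5* and *Tgfb1* were the only members past the minimum in all 3 tables, and the genes most like them were sought over the 6 group means of log2(CPM + 1), each centred on its own mean. For *Ccl5* these were *Maf*, AABR07034315.1 and *Inppl1*, with root mean square differences of 0.303, 0.307 and 0.336, against a median of 1.1 over 6206 genes. For *Tgfb1* they were *Zcchc9*, *Dhrs1* and *Zdhhc5*, with differences of 0.0646, 0.0662 and 0.0668, against a median of 0.636. The 6 points share their libraries and span 3 separate tables.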

How the data were processed

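RNA of sorted rat T-MBP cells was sequenced as 3′ mRNA libraries (Collibri kit). According to the study's methods and the submitters' processing notes, the authors aligned untrimmed reads to Rnor_6.0 with STAR 2.7.2b, counted them per gene with HTSeq-count 1.0.0 and scaled them with DESeq2 2.11.40.7 (poscounts), under R 4.0.0. The signal values deposited by the authors are reads divided by 1 size factor per library, within each of 3 tables. All positive values (100%) were multiples of 1 step per library (tolerance 0.01), which gave back whole reads. Tables of the authors' comparisons hold fold changes and p-values and were not used, nor were 8 columns of human values per sample.

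Genes with a mean of at least 10 normalized counts entered the test, by limma 3.58.1 (lmFit, eBayes with a trend, R 4.3.3) on log2(normalized count + 1), replicate number as a block, two-sided, with Benjamini-Hochberg adjustment over all genes of a table and a threshold of 0.05. Fold changes are on that log2 scale. The tissue difference was fitted by limma to the log2 ratios of the pairs, with a trend on a gene's mean level over both tissues. For *Ccl4* and *Ccl3*, with few splenic reads, this trend understates the spread of the splenic ratios. The prior on the variance had infinite degrees of freedom in the parenchyma. It had 21.97 in the splenic *Ets1* comparison, 141.3 in the *Grk2* one and 33.11 for the tissue difference. Limma p-values thus rest mostly on the trend over all genes, and in the parenchyma wholly, rather than on a gene's own spread. Single genes were also tested by exact permutation (20 labellings, smallest p 0.1). The limma, edgeR and DESeq2 fits were tested on simulated data. Depth was 898092 to 2248258 reads on genes per library, and limits for 0 reads are 3 counts over a group. No 2 libraries of a group agreed within sampling noise.

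The fits were repeated without the replicate block, with a pseudocount of 0.1 or 5, with no minimum or 1 of 50, and with upper quartile scaling, quantile normalization, no variance trend, each replicate number left out, edgeR 4.0.16 (quasi-likelihood) and DESeq2 1.42.0 on the recovered reads. Named genes were the 10 members, *Ets1* and *Grk2*, list genes called in a comparison (at most 5 of a list, with 1 called gene not reported here) and the 3 genes of most similar pattern. Marker genes at 0, neighbours and overlapping genes were named beside these after their values were seen. The members and lists were chosen with earlier results of these data known.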

Additional observations from a re-analysis of the deposited data

Results flagged for a closer look

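The effect of the *Ets1* edit differed between tissues for *Ccl4* and *Ccl3*, by a test of the difference itself (limma on the log2 ratios of 3 pairs per tissue). The *Ccl4* difference, parenchyma minus spleen, was 1.57 on the log2 scale (adjusted p = 6.52e-06), with all 3 parenchymal pairs above 0 and all 3 splenic pairs below 0. The *Ccl3* difference was 1.03 (adjusted p = 0.00408), with all 3 parenchymal pairs above 0 and 2 of 3 splenic pairs below 0. Without libraries 3 the *Ccl3* difference was 0.72 and was not called (adjusted p = 0.0905), and without the variance trend neither gene was called (adjusted p = 0.278 for *Ccl3* and 0.204 for *Ccl4*). In the spleen these genes had 345 (*Ccl3*) and 136 (*Ccl4*) reads over 6 libraries, against 2393 and 8860 in the parenchyma. The SEs of the differences, 0.21 (*Ccl3*) and 0.20 (*Ccl4*), lay below those of the splenic fold changes alone, 0.22 and 0.32. The p-values of these differences thus understate the splenic uncertainty. Groups of 3 libraries are too small for a test of single outlying libraries.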

How the results depend on the processing

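Each comparison within a table was recomputed under 13 alternatives and the tissue difference under 11, without edgeR and DESeq2. In the parenchyma the count of 3 members called (*Ccl3*, *Ccl4* and *Ccl5*) was the same under 12 of 13 and fell to 0 without a variance trend (adjusted p between 0.248 and 0.365, 3 of all genes called). Without the trend the count was also 0 in the spleen of the *Ets1* experiment, in the *Grk2* experiment and for the tissue difference, with 785, 571 and 757 of all genes at an unadjusted p under 0.05 and 0, 0 and 2 called. Leaving out each replicate number in turn gave 3 members called in the parenchyma, between 0 and 1 in each spleen comparison and between 1 and 2 for the tissue difference. For the splenic *Ets1* comparison, 3 of all genes were called without libraries 1 and 155 with them. A minimum of 50 gave 1 member for the tissue difference, since *Ccl4* was then under the minimum in the spleen. Quantile normalization gave 3, adding *Ccl5* (-0.49, adjusted p = 0.0137). DESeq2 called 0 members in the *Grk2* experiment, with 144 of all genes at an unadjusted p under 0.05, and edgeR called 1. The *Tgfb1* fold change of -0.06 in the splenic *Ets1* comparison ranged from -0.26 to 0.23 over replicates left out, turning positive without libraries 3, and its tissue difference of -0.10 from -0.33 to 0.045, turning positive without libraries 1. Causes of these changes were not tested.

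Deviations of same-numbered libraries from their group means had correlations of 0.126, 0.159 and -0.003 in the parenchyma, 0.0889, 0.0768 and 0.175 in the spleen of the *Ets1* experiment, and 0.145, 0.00617 and 0.122 in the *Grk2* experiment. The best correlation with another number was 0.0447, -0.0409 and 0.00314, then 0.0227, 0.0496 and -0.0823, then -0.0141, 0.0167 and 0.00906. It was the lower value except in pair 3 of the parenchyma and pair 2 of the *Grk2* experiment. All these correlations are weak, and a shared number is not shown to mark a shared animal. Without the replicate block the members called were 3, 1 and 0 in these tables and 2 for the tissue difference, and 200, 71, 19 and 47 of all genes, against 366, 155, 109 and 137 with it. Other counts of all genes that moved by over 1.5 times were 212 (parenchyma) with no minimum, 242 (splenic *Ets1*) with no minimum, 60 (*Grk2*) with a minimum of 50, 238 (splenic *Ets1*) in edgeR, which called 354 and 90 in the other tables, and 87, 58 and 13 in DESeq2. Replicates left out gave 163 to 277 genes, 3 to 232, 6 to 50 and 28 to 112. The share of calls that were higher in KO cells was 43.4%, 45.8% and 59.6%, and became 53.6% with quantile normalization, 54.8% in edgeR and 59.8% in DESeq2 for the parenchyma, 56.8% with upper quartile scaling and 60.3% in DESeq2 for the splenic *Ets1* comparison, and 45.7%, 44.2% and 47.8% with these 3 methods (upper quartile, quantile, edgeR) for *Grk2*. Depth limits the splenic values of *Ccl3*, *Ccl4* and *Ifng*, and for *Csf2*, *Il2*, *Il10*, *Tnf* and *Xcl1* it allows no comparison.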
